A study of Mus musculus with 20 samples.

Results

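Whole ovaries of adult mice (27 to 28 weeks) were compared with whole ovaries of young mice (7 to 8 weeks). The comparison used 8 of the 20 RNA-seq libraries of the series, the 4 adult and the 4 young ones, and all 17651 genes of the deposited table were tested. Per the labels, all mice were wild type (WT), and neither of these groups was given HEP14, the agent the study tests. The labels tie the vehicle to the aged mice and do not say plainly whether adult and young mice had it too. The remaining 12 libraries came from adult mice given HEP14, aged mice (73 to 74 weeks) and aged mice given HEP14, and they enter only where values are set side by side. The labels give no strain, stage of the oestrous cycle, breeding history or time of day. Nothing in them says that the 4 libraries of a group came from separate animals, so the p-values measure the spread between these libraries, which may be partly technical.

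Each deposited value is a score: a gene's value in a library, centred and scaled so that the gene has a mean of 0 and a standard deviation (SD) of 1 over the 20 libraries. A difference is the adult mean minus the young mean, in SD of that gene. It is not a fold change, and it says nothing about how abundant a transcript is. The read depth behind the scores is not known, and nor is the level of any marker, so the tissue label can be checked only by which markers are in the table. These include 23 of 24 oocyte, 15 of 17 granulosa cell, 8 of 10 theca cell and 13 of 13 luteal cell markers. Differences were tested with limma, and a gene was called when its Benjamini-Hochberg adjusted p over all genes was at or under 0.05. All adjusted p below come from that fit unless another is named.

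The ovary grows follicles, in which an oocyte is surrounded by granulosa cells and, outside a basement membrane, by theca cells. After ovulation the emptied follicle becomes a corpus luteum, a short-lived gland that makes progesterone from cholesterol. Luteal cells take cholesterol from lipoproteins or make it themselves, through the mevalonate pathway and the sterol steps that follow squalene, and the transcription factor SREBP2 switches on both routes when cell sterol is low. At the ages of the young mice the first waves of follicles have only recently given rise to regular cycles, while older cycling ovaries hold corpora lutea of several cycles. Regressing corpora lutea are cleared by macrophages, and the stroma between follicles is a matrix of collagen and elastic fibres with smooth muscle. The oviduct, its ciliated epithelium and a fat pad adjoin the ovary and can be carried along in dissection.

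Of the 17651 genes, 3789 were called (21.5%), 1431 higher in adult ovaries (8.11%) and 2358 lower (13.4%). The median difference was -0.01 over all genes, 1.23 among those that rose and -1.36 among those that fell. In 3466 of the 3789 the 4 adult and the 4 young scores did not overlap, which held for 28.3% of all genes tested. Scores scattered more among adult than among young libraries, with a median SD of 0.447 in adult and 0.279 in young ovaries. Between libraries, scores correlated across genes at 0.62 to 0.77 within the young group, at 0.60 between adult libraries 1 and 2, and at 0.05 to 0.12 between adult library 4 and the other adult libraries. Leaving out young library 3, young library 1 or adult library 2 left 1589, 1791 or 2121 genes called. A fit of all 20 libraries called 1751. Of the 320 called members of the gene lists, 184 lost the call with at least 1 library left out. With young libraries 1 and 3 both left out, chosen after seeing that young library 1 had the highest oviduct score and young library 3 the highest fat cell score, no gene was called and 3924 had an unadjusted p under 0.05. All 3789 differences kept their sign there, which was fixed in advance for the 3466 whose groups did not overlap.

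**Figure D1:**
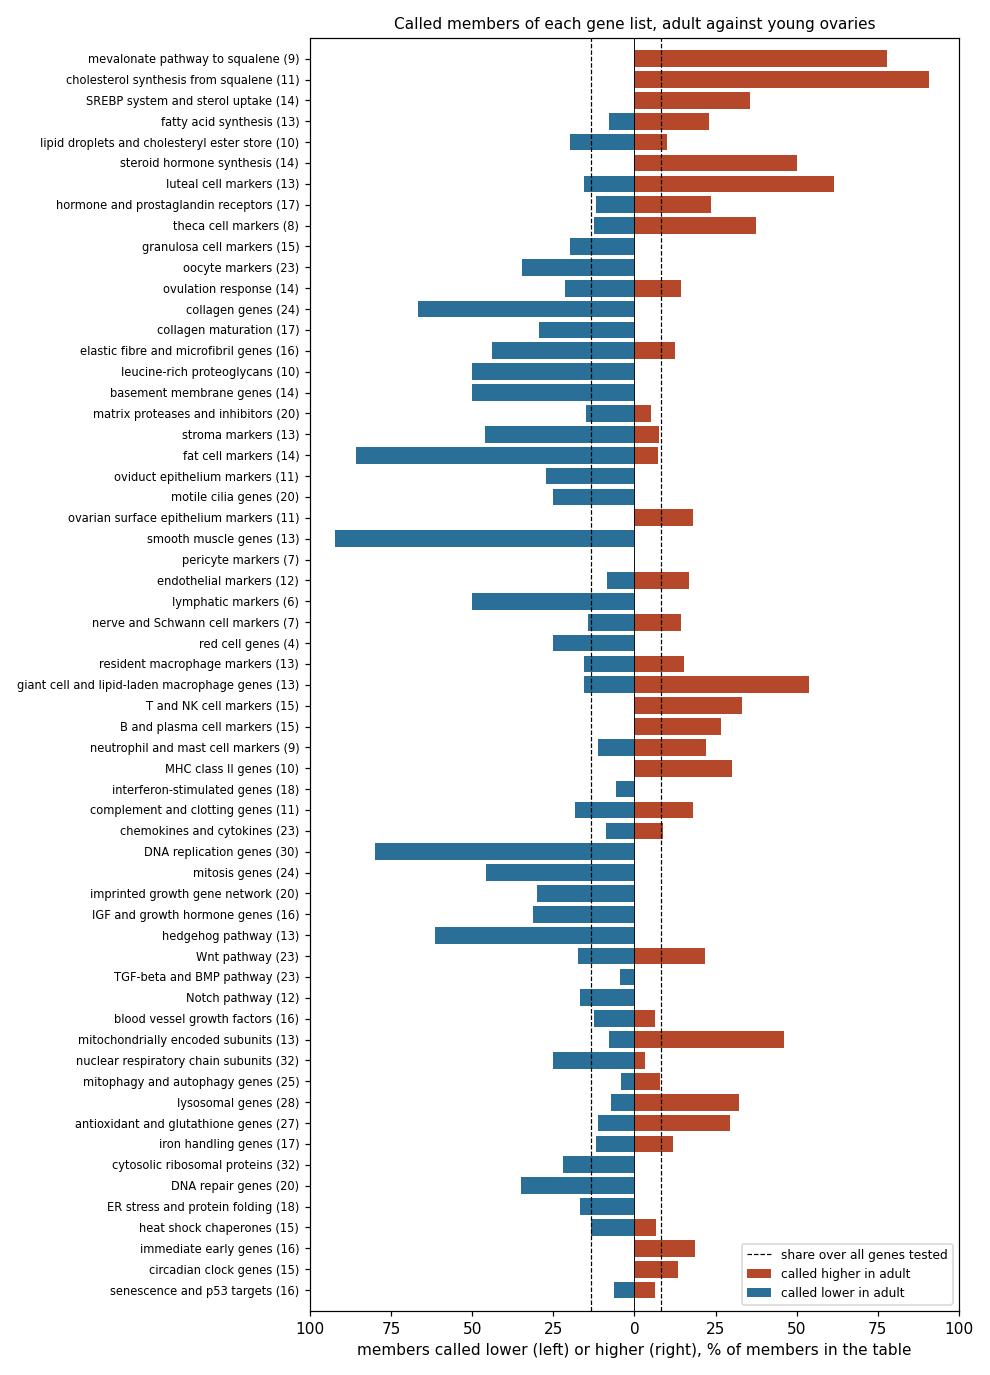
Called members of 60 gene lists, adult against young ovaries. Bars to the right show the percentage of a list's members in the table that were called higher in adult ovaries and bars to the left the percentage called lower, dashed lines mark the shares over all genes tested (8.11% higher and 13.4% lower), and the number of members is in parentheses. Cholesterol synthesis extends farthest to the right, and smooth muscle, fat cell and DNA replication genes farthest to the left.

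Cholesterol synthesis was higher in adult ovaries along almost the whole pathway. Of 9 genes from acetyl-CoA to squalene, 7 rose and none fell, with a median difference of 1.59. Of 11 genes from squalene to cholesterol, 10 rose and none fell, with a median of 1.8. The shares, 77.8% and 90.9%, stand against 8.11% over all genes.

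The promoters of these enzymes were read from RefSeq (GRCm38.p6), as windows from 250 bases before to 50 bases after the transcription start, on the strand of the gene. Of the 17 called genes of both lists, 13 had a window, and all 13 held, in at least 1 window, the CCAAT box (letters CCAAT, searched on both strands), the site of the factor NF-Y, which acts together with SREBP at sterol genes. The box stood in 41.7% of the 11542 tested genes with a window and in 41.1% of all genes of the promoter table. The sterol regulatory element, searched as TCACNCCAC on both strands, stood in 1 of the 13, Hmgcs1, against 1.53% of the tested genes. The stretches below are shown because these enzymes rose together. They are a choice in pathway order, with 1 box per gene before the start and the motif in capitals (ATTGG is the box on the other strand). For Idi1, Msmo1, Nsdhl and Dhcr7 another box lies nearer the start. The boxes of Hsd17b7, Mvd, Ggps1 and Tm7sf2 are not shown. None of the capitals overlaps a match to another motif searched. The Hmgcs1 sterol element lies at chr13:119690184-119690252 (plus strand), with its last base 129 bases before the start, and the Hmgcs1 CCAAT box nearest the start at chr13:119690286-119690330, with its last base 41 bases before the start. Another of its boxes, with its last base 172 bases before the start, stands nearer the element. The others are at chr13:8885541-8885585 (Idi1, plus), chr10:76531523-76531567 (Lss, plus), chr5:4104702-4104746 (Cyp51, minus), chr8:64733650-64733694 (Msmo1, minus), chrX:72918392-72918436 (Nsdhl, plus), chrX:8193543-8193587 (Ebp, minus), chr9:42264301-42264344 (Sc5d, minus) and chr7:143830109-143830153 (Dhcr7, plus). A match is a description of the letters and no evidence that a factor binds.
Hmgcs1 sterol element: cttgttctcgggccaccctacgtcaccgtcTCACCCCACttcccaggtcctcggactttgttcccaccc
Hmgcs1 CCAAT box: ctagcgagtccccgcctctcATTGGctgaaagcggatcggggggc
Idi1: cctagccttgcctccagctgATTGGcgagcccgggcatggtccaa
Lss: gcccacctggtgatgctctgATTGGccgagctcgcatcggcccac
Cyp51: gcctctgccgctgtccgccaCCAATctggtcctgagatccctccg
Msmo1: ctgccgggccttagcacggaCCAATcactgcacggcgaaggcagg
Nsdhl: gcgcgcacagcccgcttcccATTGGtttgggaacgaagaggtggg
Ebp: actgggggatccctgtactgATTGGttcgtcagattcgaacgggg
Sc5d: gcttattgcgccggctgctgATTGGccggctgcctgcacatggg
Dhcr7: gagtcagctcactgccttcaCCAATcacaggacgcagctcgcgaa

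Fdps, which makes farnesyl diphosphate (chromosome 3, 89093588 to 89101959, minus strand), had scores of 1.32, 0.95, 0.19 and 0.12 in adult libraries 1 to 4, against -1.26, -1.01, -1.32 and -1.44 in young libraries 1 to 4. All adult scores were above all young ones, with a difference of 1.90 (SE 0.29, adjusted p = 0.00719). Adult libraries 1 and 2 were the high ones. Msmo1, a demethylase of sterol intermediates, had 1.26, 1.4, 0.16 and 0.66 in adult ovaries and -1.68, -0.77, -1.29 and -1.33 in young ovaries (difference 2.14, SE 0.32, adjusted p = 0.00664). Hsd17b7, which acts in cholesterol and oestrogen synthesis, had 1.13, 1.57, 0.33 and 0.06 in adult ovaries, against -1.24, -1.13, -1.28 and -1.24 in young ovaries. The 4 young scores lay close together, and the difference was 2.0 (SE 0.33). Sqle, which oxidises squalene, differed by 1.82 (adjusted p = 0.0169, and 0.0506 without young library 3). Hmgcs1 differed by 1.96, Cyp51 by 2.04, Fdft1 by 1.81 and Ebp by 1.73. Acat2 (1.33, adjusted p = 0.0534) and Mvk (0.81), of the early steps, did not pass. The calls of Hmgcs1 and Sc5d ended without adult library 2 or young library 1 or 3, that of Lss there and without young library 4, and that of Dhcr7 also without adult library 1. Idi1 lost its call without young library 3, and the highest adjusted p of these 5 lay between 0.0502 and 0.075.

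The mean score of the genes to squalene was 1.36, 0.88, 0.29 and -0.07 in adult libraries 1 to 4, against -1.22, -0.67, -1.02 and -1.06 in young libraries 1 to 4. For the later steps it was 1.21, 1.26, 0.03 and 0.09 in adult ovaries and -1.19, -0.68, -1.06 and -1.16 in young ovaries. Every adult library was above every young library, and adult libraries 1 and 2 were above adult libraries 3 and 4. With 1 library left out, 3 to 8 of the 9 early genes and 5 to 11 of the 11 later genes were called, and both counts were lowest without young library 3 (the early one also without adult library 2). Whole-tissue scores cannot tell more cells of a type from more of a transcript per cell, or fewer cells from less RNA per cell, here or in any result below.

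Of 14 genes that sense and import sterols, 5 rose (35.7%, against 8.11% of all genes) and none fell. Scarb1, the receptor that takes cholesteryl ester from HDL, had 1.31, 1.48, 0.33 and 0.34 in adult ovaries and -1.86, -0.99, -1.33 and -1.32 in young ovaries (difference 2.24, SE 0.33, adjusted p = 0.00641), with no overlap. Srebf2, which encodes SREBP2, differed by 1.61, the intracellular cholesterol carrier Stard4 by 1.53, and the lysosomal cholesterol binder Npc2 by 1.0. Insig1 (1.18, adjusted p = 0.0839), which holds SREBP in the endoplasmic reticulum, Scap (1.19) and the sterol exporter Abca1 (-0.54) did not pass. Soat1, which esterifies cholesterol for storage, rose by 1.26. It was the only 1 of 10 lipid droplet and cholesteryl ester store genes to rise, while 2 fell, Cidec (-2.11) and G0s2 (-1.18). The median of that list was -0.0, so the store genes did not rise as a block. Without young library 3, 1 of the 14 was called, and Npc2 had an adjusted p of 0.0514. Srebf2 was not called without any 1 library but adult 3 or young 2 (0.0773 at most), nor Stard4 without any but adult 3 or 4 (0.102 at most).

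Fatty acid synthesis did not move as a block: 3 of 13 genes rose (23.1%) and 1 fell (7.69%), with a median of 0.57. Over all genes the shares were 8.11% and 13.4%. Acsl4, which activates arachidonic acid, rose by 2.12, the elongase Elovl5 by 1.72 and the desaturase Scd2 by 0.81 (not called without any 1 library but adult 3 or 4, adjusted p 0.0779 at most). Acacb, an acetyl-CoA carboxylase of oxidative tissue and fat, fell by 1.52. Fasn had 0.07, -0.05, -0.64 and -0.20 in adult ovaries, against 1.98, 0.22, 3.23 and -0.08 in young ovaries. Its difference of -1.54 did not pass (adjusted p = 0.129), and young libraries 1 and 3, the high ones, also had the highest mean scores of the fat cell list (1.54 and 2.17). The part of fat tissue in it was not tested.

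Steroid and luteal transcripts were higher in adult ovaries. Of 14 steroid synthesis genes 7 rose and none fell, and of 13 luteal cell markers 8 rose and 2 fell, with a median of 1.72. Star, which carries cholesterol into mitochondria, had 1.53, 0.96, -0.03 and 0.14 in adult ovaries, against -1.89, -0.43, -2.10 and -1.53 in young ovaries (difference 2.14, SE 0.46, adjusted p = 0.0188, and 0.0534 at most without young library 1 or 3). Cyp11a1, which cuts the cholesterol side chain, had 0.57, 0.85, 0.22 and 0.56 in adult ovaries and -2.63, -0.43, -1.88 and -1.5 in young ovaries (difference 2.16, SE 0.42). Neither gene overlapped between the groups, and young library 2 was the highest young library for both. Hsd3b1, which makes progesterone from pregnenolone, differed by 1.95 (SE 0.27, adjusted p = 0.00559), and the electron donor Fdx1 by 1.89 (adjusted p 0.0795 at most, its call ending without any 1 library but young 2 or 4). Cyp19a1, the aromatase that makes oestradiol in granulosa cells, had -1.18, 0.21, -0.36 and 0.05 in adult ovaries and -1.03, -0.51, 0.23 and 1.11 in young ovaries. These overlapped, and the difference of -0.27 did not pass (95% interval -1.4 to 0.86). Star, Hsd3b1 and Fdx1 are also on the theca cell list, so their rise is not particular to luteal cells.

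Ptgfr, the receptor for the prostaglandin that ends luteal life, had the largest rise of the genes named here. Its scores were 0.55, 1.44, 0.39 and 0.94 in adult ovaries, against -1.55, -1.32, -1.68 and -1.71 in young ovaries (difference 2.40, SE 0.25, adjusted p = 0.00406). Sfrp4, a secreted Wnt inhibitor of luteal cells, had 0.09, 1.05, 0.27 and 1.13 in adult ovaries and -1.87, -1.32, -1.83 and -1.86 in young ovaries (difference 2.35, SE 0.28). Both groups were tight relative to the gap between them. The prolactin receptor gene Prlr differed by 2.03 (0.0582 at most without young library 1 or 3) and the LH receptor gene Lhcgr by 1.89 (adjusted p = 0.0175, and 0.0502 without young library 3). Akr1c18, which breaks down progesterone in regressing luteal tissue, had -0.30, -0.67, 0.47 and 1.64 in adult ovaries and -1.28, -1.19, -1.23 and -1.34 in young ovaries. Adult library 4 was the high one, and the difference of 1.54 (adjusted p = 0.0449) was called only with all 8 libraries or without adult library 2 or 4. Its adjusted p reached 0.0971. Pla2g4a (-0.78) and Pcsk6 (-0.58), also on the luteal list, fell, and neither was called without adult library 1 or 2 or young library 1, 2 or 3 (adjusted p 0.0887 and 0.0914 at most). The list mean was 0.27 to 0.64 in adult libraries and -1.05 to -0.37 in young libraries, with young library 2 at -0.37 and the others at or below -0.94. With young library 3 left out, 4 of the 13 luteal genes were called higher, and 3 of the 14 steroid genes were called higher without it or without young library 1. None of the 12 called steroid and luteal genes with a promoter window held the half-site of steroidogenic factor 1 (AAGGTCA, both strands), which stood in 4.51% of tested genes.

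**Figure D2:**
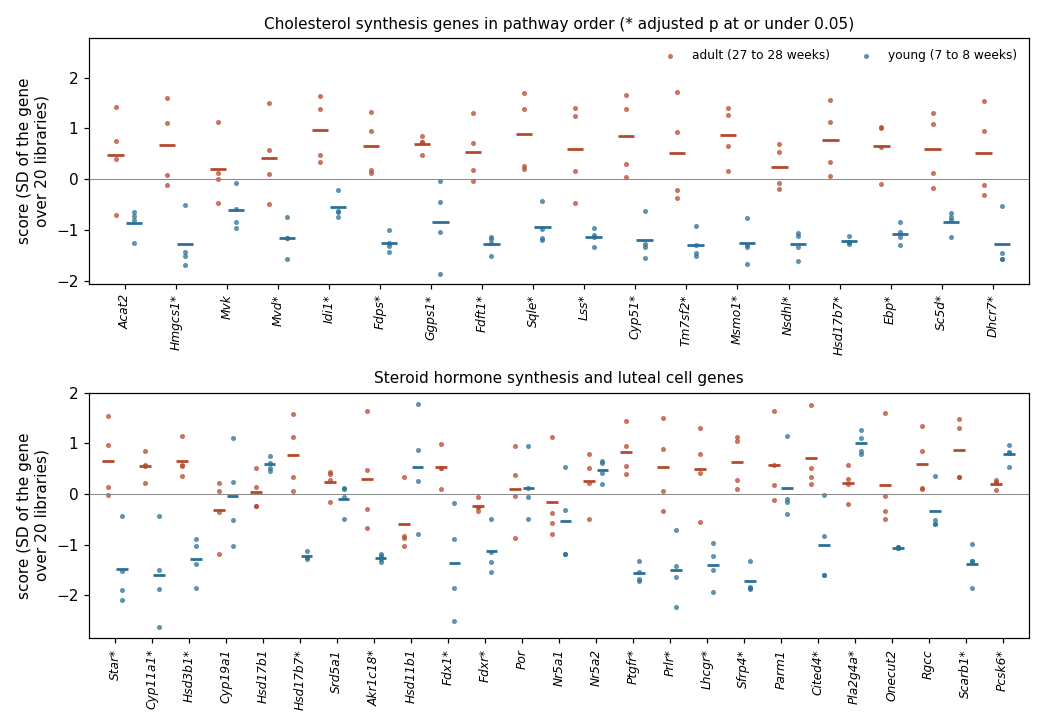
Scores of cholesterol synthesis genes in pathway order (top) and of steroid hormone synthesis and luteal cell genes (bottom). Each point is 1 library, red for adult and blue for young ovaries, bars are group means, the vertical axis is the score in SD of the gene, and asterisks mark called genes. Most genes of the cholesterol panel carry an asterisk, each with the adult mean above.

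Among 17 hormone and prostaglandin receptors, Ptgfr, Prlr and Lhcgr included, 4 rose (23.5%) and 2 fell (11.8%). Over all genes the shares were 8.11% and 13.4%, and the list median was -0.35. Ptger2, a prostaglandin E2 receptor, rose by 0.96, with scores of -0.46 to 0.23 in adult and -1.22 to -0.95 in young ovaries. Pgr, the progesterone receptor, had -0.52, -0.59, -0.64 and -0.70 in adult ovaries, against 2.69, 0.29, 1.66 and 0.67 in young ovaries (difference -1.94, adjusted p = 0.0275, and 0.0737 at most without adult library 1, 2 or 4 or young library 3). Ptger4 fell by 1.63. For Pgr young libraries 1 and 3 were the high ones, and these had the highest fat cell scores (1.54 and 2.17), whose part was not tested. Without young library 3, 2 receptors were called higher and 1 lower. The oestrogen receptor gene Esr1 (-1.15, adjusted p = 0.0639) did not pass.

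Oocyte transcripts were lower in adult ovaries in part of the list. Of 23 oocyte markers, 8 fell (34.8% against 13.4% of all genes) and none rose, with a median of -0.86. Gdf9, the growth factor by which the oocyte acts on granulosa cells, had 0.30, 0.02, 0.58 and 0.48 in adult ovaries, against 1.15, 0.82, 1.14 and 1.22 in young ovaries. Every adult score was lower than every young one (difference -0.74, SE 0.18, adjusted p = 0.0285), but the call ended without adult library 1 or 2 or young library 1, 3 or 4 (adjusted p 0.0772 at most). Lhx8, a transcription factor of primordial oocytes, had -0.03, -0.23, 0.68 and -0.11 in adult ovaries and 2.07, 0.77, 1.48 and 1.75 in young ovaries (difference -1.44, adjusted p = 0.0203, and 0.0532 at most without adult library 2 or young library 1 or 3). Ybx2, which binds stored messages in germ cells, fell by 1.81 (SE 0.35, adjusted p = 0.0131), and Ooep and Oog1, genes of the growing oocyte, by 1.19 and 1.27. The call of Ooep held only without adult library 3 (adjusted p 0.102 at most), and that of Oog1 ended without the same 5 libraries as Gdf9 (0.0681 at most).

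None of the egg coat genes passed: Zp3 had -0.11 to 0.69 in adult and 0.67 to 1.31 in young ovaries (difference -0.72, adjusted p = 0.0579), Zp2 differed by -0.58 and Zp1 by -0.56. Ddx4, a germ cell helicase, differed by -1.17 (adjusted p = 0.0856). The transcription factors Figla and Sohlh1 of early oocytes differed by -1.48 and -1.57 without passing, and young library 3 was low for both, at -0.13 and -0.12, while the other young libraries lay between 1.12 and 2.36. Leaving out adult library 2 or young library 1 left 1 oocyte gene called lower, and leaving out another left up to 14.

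Few granulosa cell genes were called. Of 15 markers, 3 fell (20%, against 13.4% of all genes), Kctd14, Bex2 and Slc18a2, and none rose. Kctd14 had -0.80, -1.38, -0.29 and -0.69 in adult ovaries and 1.02, 1.15, 0.78 and 0.49 in young ovaries (difference -1.65, adjusted p = 0.00786). Amh, the hormone that restrains follicle recruitment, had 0.27, 0.22, 0.33 and 0.76 in adult ovaries and 0.80, 0.72, 0.96 and 0.84 in young ovaries. Adult library 4 lay within the young range, and the difference of -0.44 did not pass (adjusted p = 0.0975). Inha (-0.60) and Foxl2 (0.26) did not pass either, nor did Insl3 (0.66), the hormone of theca cells. Of 8 theca cell markers, however, 3 rose (37.5%, against 8.11% of all genes) and 1 fell, with a median of 0.82. The 3 were Star, Hsd3b1 and Fdx1, given above. The theca list mean was 0.16 to 0.33 in adult and -0.97 to -0.13 in young libraries. Without young library 1 or 3, 1 theca marker was called higher and none lower. In the ovulation response, the factor Runx2 of luteinising cells rose by 2.13 and Il6 by 0.60, while Ptx3 and Areg, induced in cumulus and granulosa cells, fell by 1.63 and 1.22, along with Pgr. The remaining 9 of its 14 genes, Ptgs2 (-0.38) among them, did not pass. The calls made 14.3% higher and 21.4% lower, against 8.11% and 13.4% of all genes. Without young library 3, Bex2 had an adjusted p of 0.0576 and 1 granulosa gene was called, and Slc18a2 lost its call there and without young library 1 (0.0586 at most). Il6 was not called without any 1 library but adult 3 or 4 (0.0969 at most), nor Areg without any but young 4 (0.1 at most). Ptx3 lost its call without adult library 2 or young library 3 (0.056 at most), where no ovulation gene was called lower.

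Cell division genes fell. Of 30 DNA replication genes, 24 fell (80.0% against 13.4% of all genes) and none rose, with a median of -1.11. Of 24 mitosis genes, 11 fell (45.8%) and none rose, with a median of -0.90. Mcm2, a subunit of the replicative helicase, had 0.07, -0.27, 0.41 and -0.39 in adult ovaries, against 1.28, 1.57, 1.38 and 1.06 in young ovaries (difference -1.37, SE 0.22, adjusted p = 0.00837). Dnmt1, the methyltransferase that copies DNA methylation at the fork, had 0.21, -0.20, 0.26 and -0.66 in adult ovaries and 1.81, 1.48, 1.61 and 1.68 in young ovaries (difference -1.74, SE 0.23). The groups did not overlap for either gene. Lig1, which joins Okazaki fragments, fell by 2.08, Mcm7 by 1.98 and Mcm10 and the thymidylate synthase gene Tyms each by 1.78 (Tyms 0.0517 without young library 3). Pcna, the sliding clamp, had -0.47 and did not pass (adjusted p = 0.0838), although its adult scores (0.06 to 0.49) were all below its young scores (0.58 to 0.98).

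Among mitosis genes, Cdc20, an activator of the anaphase-promoting complex, had 0.04, -0.39, 0.54 and -0.03 in adult ovaries, against 1.08, 1.12, 1.2 and 1.01 in young ovaries (difference -1.06, adjusted p = 0.0145). Bub1b, of the spindle checkpoint, fell by 1.08, the kinase Plk1 by 1.68 (0.0552 without young library 3) and the survivin gene Birc5 by 1.4. The call of Birc5 held only without adult library 3 (adjusted p 0.0741 at most). Mki67, the usual proliferation marker, had -0.20, -0.16, 1.19 and -1.77 in adult ovaries and 0.76, 0.88, 0.78 and 0.44 in young ovaries. Adult library 3 was above all young libraries and adult library 4 far below, and the difference of -0.95 did not pass (adjusted p = 0.215). The mean of the mitosis list was 0.07, -0.27, 0.83 and -0.40 in adult libraries 1 to 4, against 0.94 to 1.03 in young libraries, so that adult library 3, the high one, was below every young library. Adult library 3 was the high one for replication as well (0.36, the other adult libraries -0.50 to -0.14). Without young library 3, 11 of the replication and 3 of the mitosis genes were called lower, and at most 28 and 24 with another library left out. In the fit of all 20 libraries the counts were 11 and 0.

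E2F factors switch on replication genes at the entry into S phase. Their motif was searched as TTTCGCGC on both strands and stood in the promoter window of 7 of the 27 called replication and mitosis genes that had one (25.9%), against 0.641% of tested genes. The 5 stretches shown are those in which the motif lies before the transcription start, with the motif in capitals (GCGCGAAA on the other strand) and no overlap with another motif searched. They are at chr1:128359784-128359831 (Mcm6, minus), chr5:151651209-151651238 (Rfc3, minus), chr8:75109336-75109383 (Mcm5, plus), chr9:20952815-20952862 (Dnmt1, minus) and chr17:56304108-56304155 (Uhrf1, plus) of GRCm38.p6. The CCAAT box stood in 70.4% of the 27.
Mcm6: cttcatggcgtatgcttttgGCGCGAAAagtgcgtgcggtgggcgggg
Rfc3: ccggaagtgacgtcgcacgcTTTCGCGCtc
Mcm5: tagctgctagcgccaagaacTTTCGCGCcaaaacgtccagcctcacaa
Dnmt1: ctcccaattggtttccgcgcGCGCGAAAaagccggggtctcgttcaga
Uhrf1: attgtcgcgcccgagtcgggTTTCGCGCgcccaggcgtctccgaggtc

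The 5 genes fell by 0.94 (Uhrf1, which recruits Dnmt1) to 1.74 (Dnmt1), with Mcm6 at -1.04, Mcm5 at -1.18 and the clamp loader subunit Rfc3 at -1.39. Without young library 3, Rfc3 had an adjusted p of 0.0553, and Uhrf1 had 0.0512 at most there and without young library 1. DNA repair genes, many of them active in S phase, fell in 7 of 20 cases and rose in none. That was 35.0%, against 13.4% of all genes. Msh6, of mismatch repair, had 0.23, 0.03, 0.38 and -0.64 in adult ovaries and 1.60, 1.71, 1.87 and 1.77 in young ovaries (difference -1.73, SE 0.24, adjusted p = 0.00555). Brca1, of double-strand break repair, had 0.39 and below in adult ovaries and 1.24 and above in young ovaries (difference -1.34, SE 0.18). The kinase genes Atm (-0.70) and Atr (-0.15) did not pass. Without young library 1, 4 repair genes were called.

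**Figure D3:**
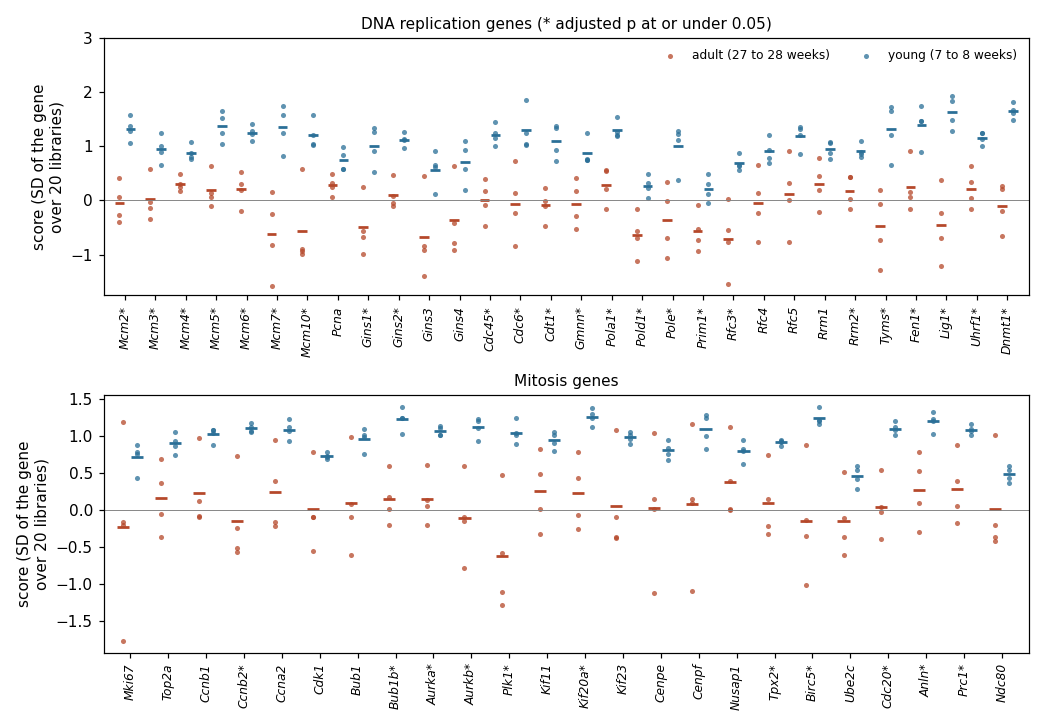
Scores of every measured DNA replication gene (top) and mitosis gene (bottom). Points are libraries, red for adult and blue for young ovaries, bars are group means, the vertical axis is the score in SD of the gene, and asterisks mark called genes. The young points of most genes lie close together, while the adult points spread, as for Mki67 (-1.77 to 1.19 in adult and 0.44 to 0.88 in young ovaries).

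Collagen and elastic fibre genes were lower in adult ovaries. Of 24 collagen genes, 16 fell (66.7%, against 13.4% of all genes) and none rose, with a median of -1.25. Col1a1, of the main fibrillar collagen, had 0.10, -0.35, -0.07 and -0.70 in adult ovaries, against 1.4, 1.96, 1.24 and 1.38 in young ovaries (difference -1.75, SE 0.24, adjusted p = 0.00563). Col3a1, of the fibrils of soft tissue, had 0.27, -0.51, -0.02 and -0.92 in adult ovaries and 0.95, 2.24, 1.35 and 1.28 in young ovaries (difference -1.75, SE 0.35, adjusted p = 0.0148). No adult library reached a young one for either gene. Col6a2, of beaded filaments, fell by 2.07, Col14a1, which binds fibrils, by 1.89, and Col4a3 and Col4a4, of a specialised basement membrane, by 1.54 and 1.63. The vessel basement membrane genes Col4a1 (-0.03) and Col4a2 (-0.19) and the multiplexin gene Col18a1 (0.09) did not pass, and their scores overlapped. With 1 library left out, 11 to 15 collagen genes were called, fewest without young library 3. In the fit of all 20 libraries 11 were.

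Eln, which encodes elastin, had -0.36, -0.16, -0.89 and -1.0 in adult ovaries, against 1.44, 2.01, 1.71 and 1.33 in young ovaries (difference -2.22, SE 0.25, adjusted p = 0.00437). Mfap4, a microfibril protein that binds elastin, had -0.12, -0.97, -0.61 and -0.66 in adult ovaries and 1.5, 2.19, 1.58 and 1.35 in young ovaries (difference -2.25, SE 0.25). The gap between the groups was wider than the spread within either. Of 16 elastic fibre genes 7 fell, fibrillin Fbn1 (-0.91) among them, and 2 rose, Ltbp1 (1.43) and Ltbp2 (0.97), which bind latent TGF-beta or fibrillin. With young library 3 left out 3 were called lower, and 2 in the fit of all 20 libraries. Fbn1 lost its call without young library 2 or 3 (adjusted p 0.0647 at most), and Ltbp2 kept its call only without adult library 3 (0.116 at most).

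Of 10 leucine-rich proteoglycan genes, 5 fell, Dcn, Lum (-0.87), Fmod (-1.54), Podn (-1.77) and Ecm2 (-0.87), and none rose. Dcn, which encodes decorin, had 0.11, -0.72, -0.12 and -0.38 in adult ovaries and 0.96, 1.05, 0.92 and 1.0 in young ovaries (difference -1.26, adjusted p = 0.00793). Of 14 basement membrane genes 7 fell, with the laminin chain gene Lama2 at -1.25 (SE 0.17) and agrin (Agrn) at -1.39, while the perlecan gene Hspg2 (1.04) did not pass. Without young library 3 the counts were 2 proteoglycan and 2 basement membrane genes. Lum (0.0506) and Podn (0.0532) were among those lost, and Ecm2 had an adjusted p of up to 0.0715 without adult library 1 or young library 1, 3 or 4. The enzymes that modify and trim collagen moved the same way in 5 of 17 cases (29.4%). Among them were the prolyl hydroxylase P3h1 (-1.98) and Adamts2 (-1.23), which removes the end of procollagen. Pcolce, which speeds the removal of the other end, had 1.25 and did not pass. Without adult library 2 or young library 1 or 3, 2 of the 17 were called.

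Proteases did not follow one direction. Of 20 matrix proteases and inhibitors, Mmp2 (-1.27), Mmp3 (-1.62) and Adamts12 (-1.06) fell (15.0%, against 13.4% of all genes). Without adult library 2 or 4 or young library 1 or 2 only Mmp2 of these stayed called, and Adamts12 was lost also without adult library 3 or young library 3 (adjusted p 0.0816 and 0.0794 at most for Mmp3 and Adamts12). In the fit of all 20 libraries no member was called lower. Mmp12, the macrophage elastase, rose by 1.87 (SE 0.24, adjusted p = 0.00502), with scores of 0.47, 0.73, -0.30 and 0.34 in adult ovaries and -1.66, -1.8, -1.44 and -1.35 in young ovaries. Timp1, an inhibitor of metalloproteases, had -0.88, -0.10, -0.11 and 1.68 in adult ovaries and -1.37, -0.19, -1.13 and -1.15 in young ovaries. Adult library 4 was far above the rest, and the difference of 1.11 did not pass.

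Smooth muscle genes fell in 12 of 13 cases (92.3%, against 13.4% of all genes), with a median of -1.36. Des, which encodes desmin, had -0.75, -1.02, -0.87 and -1.12 in adult ovaries, against 0.80, 0.78, 0.82 and 0.59 in young ovaries (difference -1.69, SE 0.16, adjusted p = 0.00318). Tpm2, a tropomyosin gene, had -0.64, -1.06, -0.52 and -0.89 in adult ovaries and 1.05, 1.73, 1.27 and 1.23 in young ovaries (difference -2.10, SE 0.21). The libraries of each group lay close together for both genes. The smooth muscle myosin gene Myh11 fell by 2.16 and the actin gene Acta2 by 1.29. Tagln was the exception, with 0.34 to 0.81 in adult ovaries and -0.46 to 1.04 in young ovaries (difference 0.53, adjusted p = 0.27). With 1 library left out, 10 to 12 were called, and in the fit of all 20 libraries 4 were. None of 7 pericyte markers passed in either direction, with a median of 0.20, and 2 of them, Pdgfrb (1.15) and Kcnj8 (-0.82), differed by more than 0.8 in size.

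Stroma markers fell in 6 of 13 cases (46.2%) and rose in 1 (7.69%), against 13.4% and 8.11% of all genes. Dpt, the matrix protein dermatopontin, had -0.57, -0.82, -0.48 and -1.27 in adult ovaries, against 1.49, 1.56, 1.66 and 1.26 in young ovaries (difference -2.28, SE 0.21, adjusted p = 0.00318). Pi16, a marker of adventitial fibroblasts, fell by 1.89. Ly6a, a surface antigen of several progenitor and endothelial cells, rose by 1.27, and Pdgfra (-0.32), the receptor used to mark fibroblasts, did not pass. Of 6 lymphatic markers 3 fell, led by Pdpn (-1.76, SE 0.27). Of 12 endothelial markers Esam (1.99) and Robo4 (0.74) rose (16.7%) and Vwf (-0.89) fell (8.33%). Over all genes the shares were 8.11% and 13.4%. The endothelial list mean was -0.65 to 0.75 in adult and -0.42 to -0.05 in young libraries, which overlapped. In the fit of all 20 libraries 1 endothelial marker was called higher and none lower. The lymphatic count was 1 without any 1 of 6 libraries, adult 2 to 4 and young 1, 3 and 4. Vwf lost its call without any 1 of 6 libraries, all but adult 3 and 4 (adjusted p 0.0894 at most). Robo4 lost its call without any 1 library but adult 3 or young 2 (0.108 at most), and Ly6a without young library 1, 3 or 4 (0.0658 at most).

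**Figure D4:**
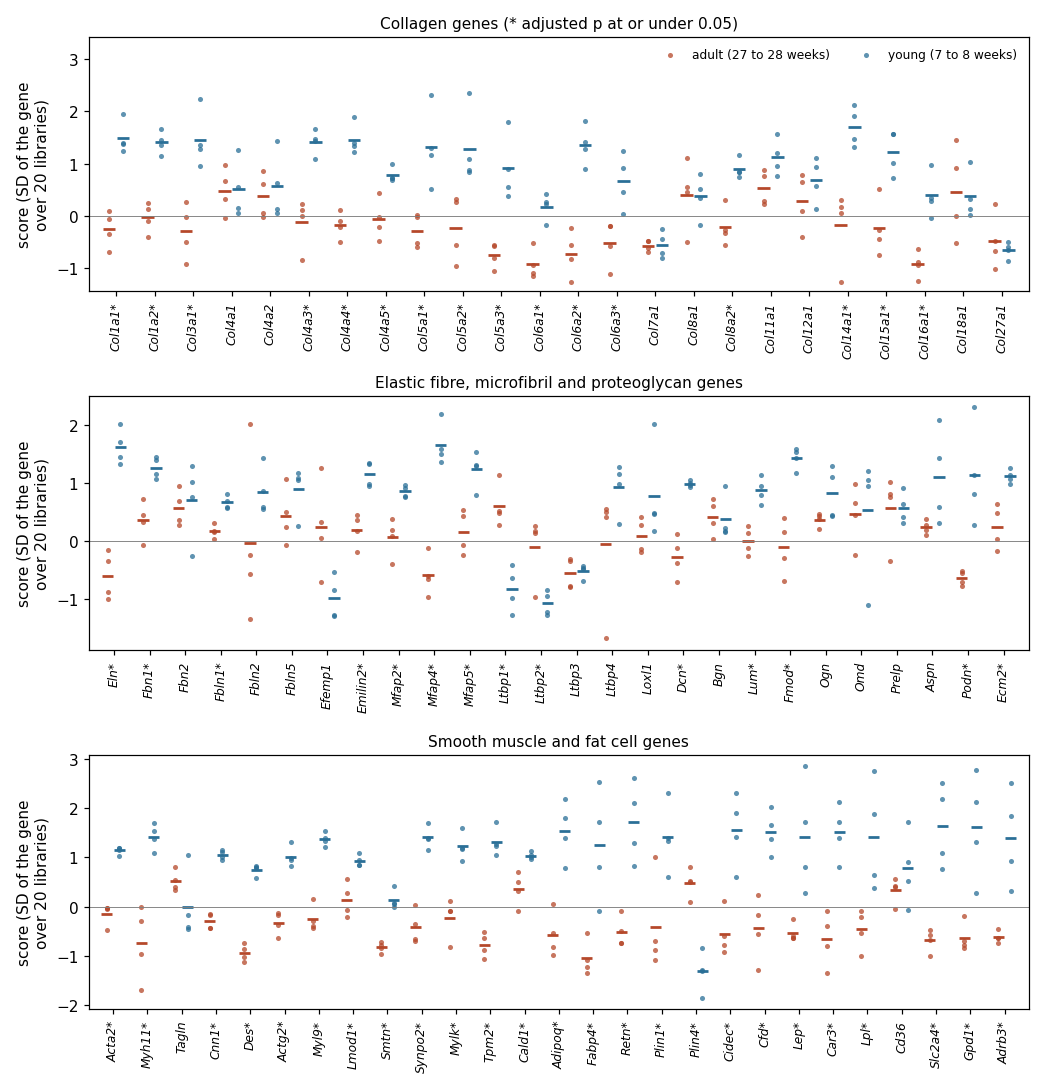
Scores of collagen genes (top), elastic fibre, microfibril and proteoglycan genes (middle), and smooth muscle and fat cell genes (bottom). Points are libraries, red for adult and blue for young ovaries, bars are group means, the vertical axis is the score in SD of the gene, and asterisks mark called genes. Young smooth muscle points cluster tightly, while young fat cell points spread, for Fabp4 from -0.08 to 2.53.

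Marker genes of fat cells, oviduct and motile cilia were also lower on average in adult libraries and varied among young ones. Of 14 fat cell markers 12 fell (85.7%) and 1, Plin4, rose (7.14%), with a median of -2.06. Over all genes the shares were 13.4% and 8.11%. Fabp4, the fatty acid carrier of fat cells, had -1.22, -0.54, -1.36 and -1.08 in adult ovaries, against 1.73, 0.81, 2.53 and -0.08 in young ovaries (difference -2.30, SE 0.52, adjusted p = 0.0215, and 0.0567 without young library 1). The hormone gene Adipoq fell by 2.12, Car3 by 2.18 and Slc2a4, the insulin-regulated glucose transporter, by 2.32. The mean of the 14 was -0.46, -0.15, -0.61 and -0.58 in adult libraries and 1.54, 0.89, 2.17 and 0.38 in young libraries. Young libraries 1 and 3 were highest, and the lowest young library was still above the adult ones. With 1 library left out 6 to 12 were called lower, fewest without young library 1.

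Of 11 oviduct genes 3 fell and of 20 motile cilia genes 5 fell, with wide scatter and medians of -1.55 and -1.43 over called and uncalled members. Ovgp1, the oviduct glycoprotein, had -0.85, -0.74, -0.72 and -0.64 in adult ovaries, against 2.34, 2.11, 0.97 and -0.12 in young ovaries (difference -2.06, SE 0.50, adjusted p = 0.0262, and 0.0594 at most without adult library 1 or 2 or young library 1, 2 or 3). Foxj1, the master regulator of motile cilia, fell by 1.82 (adjusted p = 0.0309, and 0.0784 at most without any 1 library but young library 4), and Tekt1, of the ciliary axoneme, by 1.94 (0.0596 without young library 3). The oviduct list mean was -0.58 to -0.21 in adult libraries and 2.16, 0.99, 0.53 and -0.26 in young libraries. Young library 4 lay inside the adult range for oviduct genes and for cilia genes (-0.49, adult -0.65 to -0.38). In the absence of young library 3, 1 oviduct gene and no cilia gene was called, and at most 6 and 16 without another library.

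Whether the fat, oviduct and cilia transcripts came from tissue next to the ovary was not tested, nor was the part of such tissue in the other results. Without young libraries 1 and 3 the median differences were 1.58 and 1.67 for the early and late cholesterol genes, 0.40 for steroid synthesis genes, 1.52 for luteal markers and -0.80 for oocyte markers. They were -1.07 for replication, -1.23 for collagen and -1.45 for smooth muscle genes. For fat, oviduct and cilia genes they were -1.42, -0.92 and -0.79, smaller in size than with all 8 libraries. With all 8 libraries the steroid synthesis median was 0.64.

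**Figure D5:**
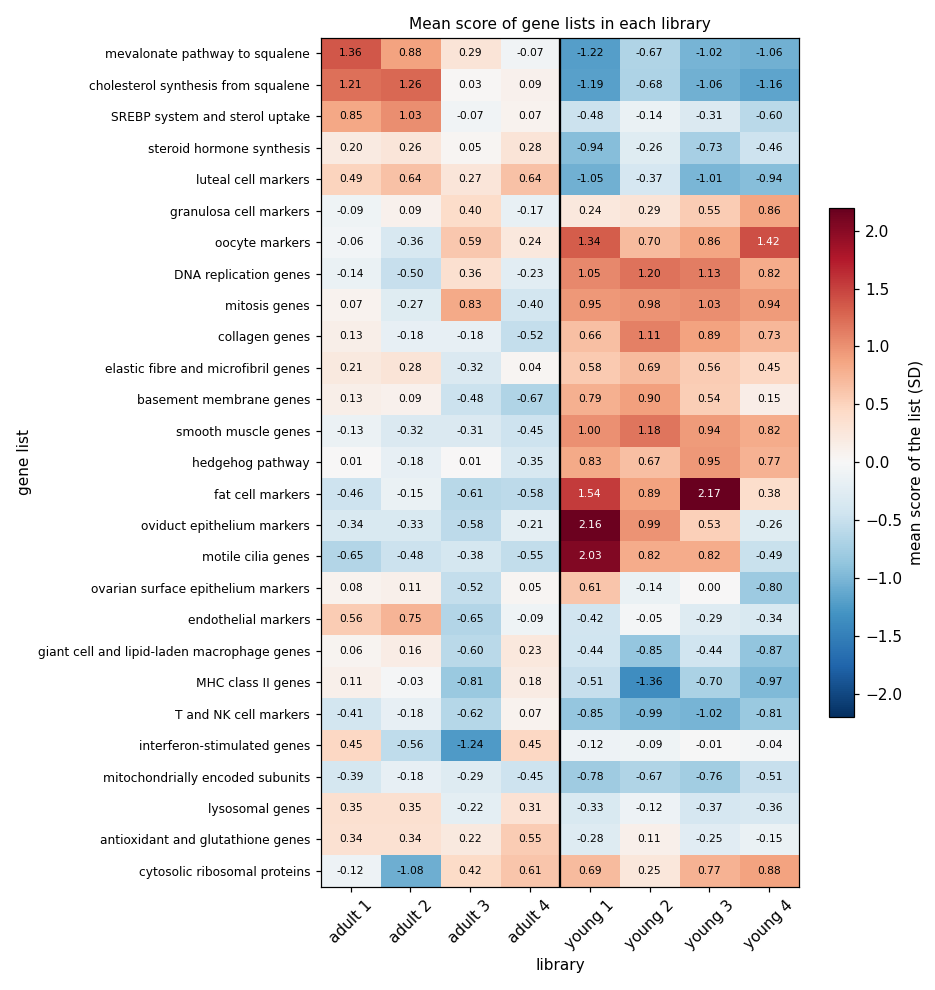
Mean score of 27 gene lists (rows) in the 4 adult libraries (left of the line) and the 4 young libraries (right), in SD, with the value printed in each cell. Adult libraries 1 and 2 are highest for cholesterol synthesis, adult library 3 is the highest adult library for mitosis and the lowest for interferon-stimulated and MHC class II genes, and young libraries 1 and 3 are highest for fat cell genes.

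Several genes of multinucleated and lipid-laden macrophages were higher in adult ovaries. The cells themselves were not measured. Of 13 genes, 7 rose (53.8%, against 8.11% of all genes) and 2 fell (15.4%, against 13.4%). Gpnmb, a lysosomal glycoprotein of these cells, had 0.58, 0.89, -0.78 and 0.53 in adult ovaries, against -1.5, -1.73, -1.37 and -1.54 in young ovaries (difference 1.84, SE 0.35, adjusted p = 0.0123). Atp6v0d2, the proton pump subunit of fusing macrophages, had 0.80, 1.04, -0.41 and 0.46 in adult ovaries and -1.71, -1.82, -1.72 and -1.76 in young ovaries (difference 2.22, SE 0.30). Adult library 3 was the lowest adult library for both, yet above all young ones. Lgals3 (galectin-3) rose by 1.73, the lipid receptor gene Trem2 by 1.41, Cd5l by 1.79 and Itgax by 1.08. Ctsk, which degrades collagen, fell by 1.85, and Lpl, also on the fat cell list, by 1.87. After leaving out 1 library, 5 to 7 were called higher. Cd5l lost its call without adult library 1 or 2 or young library 1, 2 or 3 (adjusted p 0.0724 at most). Itgax kept its call only without adult library 3 (0.0918 at most), and Lpl only without young library 2 or 4 (0.0917 at most).

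General macrophage markers went both ways. Of 13, Cd68 (1.49) and Lyz2 (1.04) rose, and Cd163 (-1.81) and Mrc1 (-1.30), scavenger receptors of tissue-resident macrophages, fell. Each pair made 15.4% of the list, against 8.11% higher and 13.4% lower of all genes. Cd163 had -0.28, -1.03, -0.66 and -0.82 in adult ovaries and 1.01, 1.66, 0.98 and 0.79 in young ovaries. Adgre1, the F4/80 antigen, had 0.58, -0.10, -1.51 and 0.94 in adult ovaries and 0.58 to 0.97 in young ovaries (difference -0.81, adjusted p = 0.24), with adult library 3 far below the rest. Among MHC class II genes, which present antigen, 3 of 10 rose, H2-Aa by 1.67, Cd74 by 1.74 and H2-DMb1 by 1.07. With any 1 library but adult 3 or 4 left out, 1 was called, and the adjusted p of Cd74 reached 0.0779 and that of H2-DMb1 0.0765.

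Some genes of T, NK and plasma cells were higher in adult ovaries. Of 15 T and NK cell markers 5 rose (33.3%, against 8.11% of all genes) and none fell. The IL-7 receptor gene Il7r rose by 1.70 (adjusted p = 0.0119) and the NK receptor gene Klrb1c by 1.54. Cd3e and Trbc2 of the T cell receptor complex rose by 0.99 and 0.70, and the granule gene Nkg7 by 1.05. In the absence of young library 3, 1 of these was called. The call of Klrb1c ended there and without adult library 1 or 2 (adjusted p 0.0645 at most). Nkg7 was lost without young library 1, 2 or 3 (0.0773 at most), Cd3e without any 1 library but adult 1 or 3 (0.11 at most) and Trbc2 without any but adult 1 (0.114 at most). Of 15 B and plasma cell markers 4 rose (26.7%, against 8.11% of all genes). All were antibody genes or the gene of the chain that joins antibodies, Jchain (1.23), with Igkc (1.23) and Ighg2c (1.81). Igha, the IgA constant region, had 0.09, 0.89, -0.07 and -0.07 in adult ovaries, against -1.30, -1.52, -1.45 and -1.79 in young ovaries (difference 1.72, SE 0.25, adjusted p = 0.00627). Antibody constant genes resemble each other, so reads may be split between them. The 4 stayed at 4 with each library left out, and the B cell surface gene Ms4a1 (-0.02) did not pass. The list median was 0.16 and the lowest difference -0.77. In 2 members every adult score was below every young one. None was called lower, but 1 was without moderation of the variances.

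On the list of 18 interferon-stimulated genes only Ifit2 (-1.44) was called, 5.56% lower against 13.4% of all genes. The list mean spread from -1.24 in adult library 3 to 0.45 in adult libraries 1 and 4, against -0.12 to -0.01 in young libraries. Oas and Oasl genes, counted by name as a family, were called lower in 6 of 11 cases (54.5%) and higher in none. Complement and clotting genes moved both ways, with C3 (-1.97) and the clotting factor gene F13a1 (-2.34) lower and C2 (1.12) and Cfp (0.49) higher. Each pair made 18.2% of the 11 genes, against 8.11% higher and 13.4% lower of all genes. Cfp was lost with any 1 library left out (adjusted p 0.112 at most) and C2 with any but adult library 3 (0.105 at most), and neither was called in the fit of all 20 libraries or with the replicate block. F13a1 had -0.34, -0.52, -0.62 and -0.60 in adult ovaries, against 1.46, 2.21, 2.02 and 1.59 in young ovaries (SE 0.21, adjusted p = 0.00318). Of 23 chemokines and cytokines, Il18 (1.39) and Il6 rose, and Ccl12 (-1.79) and Tgfb2 (-1.05) fell, each pair 8.7% of the list against 8.11% and 13.4% of all genes. Ifit2 had an adjusted p of up to 0.107 and kept its call only without adult library 1, and Tgfb2 had 0.0506 and Il18 0.0537 without young library 3, where no chemokine or cytokine gene was called higher.

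Growth pathways of the follicle and stroma were lower in several places. The hedgehog pathway, by which granulosa cells signal to theca and stroma through Dhh, had 8 of 13 genes lower and none higher. The share was 61.5%, against 13.4% of all genes. Evc2, of the ciliary complex that relays the signal, had -0.83, -1.56, -0.12 and -0.93 in adult ovaries, against 1.8, 0.68, 1.85 and 1.92 in young ovaries (difference -2.43, SE 0.38, adjusted p = 0.00744). Its partner Evc fell by 1.46, the co-receptor gene Cdon by 1.65, the ligand gene Dhh by 0.93, the transducer gene Smo by 0.74 and the effector genes Gli1 and Gli2 by 0.62 and 0.90. Ptch1, the receptor and a target, had 0.02 to 0.70 in adult ovaries and 0.76 to 1.22 in young ovaries, without overlap, and did not pass (-0.51, adjusted p = 0.101). With adult library 2, young library 1 or young library 3 left out 3 were called, and 2 in the fit of all 20 libraries. Smo was among those lost there (adjusted p 0.0637 at most). Dhh held its call only without adult library 3 (0.083 at most), Gli2 only without adult library 1 (0.11 at most) and Gli1 only without adult library 3 or 4 (0.112 at most). The Gli motif TGGGTGGTC (both strands) stood in none of the 7 called genes with a promoter window, and in 0.251% of tested genes.

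In the IGF system 5 of 16 genes fell (31.2%, against 13.4% of all genes) and none rose. Igf1, a growth factor of follicles, had -0.03, -0.51, 0.71 and -1.45 in adult ovaries, against 1.37, 1.36, 1.67 and 1.38 in young ovaries (difference -1.77, SE 0.41, adjusted p = 0.0233, and 0.0641 at most without adult library 2 or young library 1 or 3). Igf2bp2, an RNA-binding protein gene, fell by 1.52, the binding protein genes Igfbp5 and Igfbp6 by 1.2 and 0.98, and Igfals, which stabilises circulating IGF, by 2.02, while the receptor gene Igf1r (0.35) did not pass. Without any 1 of those 3 libraries, 1 IGF gene was called. Igfbp5 was lost with any 1 library left out (adjusted p 0.105 at most), Igfals with any but adult 3 or young 4 (0.0786 at most), and Igfbp6 without adult library 2 or young library 1, 2 or 3 (0.0699 at most). Of 20 imprinted genes of the fetal growth network 6 fell and none rose. H19, a maternally expressed noncoding RNA, had 0.63, -0.25, 0.18 and 0.38 in adult ovaries and 1.48, 1.52, 1.5 and 1.38 in young ovaries (difference -1.23, SE 0.21, adjusted p = 0.00916). Slc38a4 fell by 1.85, Peg3 by 1.43 (its call kept only without adult library 2, adjusted p 0.0941 at most) and Zim1, its neighbour in the imprinted domain, by 1.76. After leaving out 1 library, 5 or 6 imprinted genes were called. Dlk1 (-0.92) and Meg3 (-0.07) did not pass.

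The Wnt list split, with 5 of 23 genes higher (21.7%) and 4 lower (17.4%), against 8.11% and 13.4% of all genes. In the fit of all 20 libraries 3 were called higher and none lower. Wnt4, a ligand needed for ovarian differentiation, rose by 1.52, Lgr4 and Lgr5, receptors for R-spondins, by 1.25 and 1.76, and Lef1, a nuclear effector, by 0.73, besides Sfrp4. The R-spondin gene Rspo3 fell by 1.65 (SE 0.24), as did Tcf7l1 (-1.05), Dkk3 (-1.18) and Fzd2 (-0.86). Of 23 TGF-beta and BMP genes 1, Tgfb2, fell and none rose, and of 12 Notch genes 2 fell, Jag2 (-0.82) and Heyl (-0.74). These falls made 4.35% and 16.7% of the lists, against 13.4% of all genes. Vegfa, the main vessel growth factor of the corpus luteum, rose by 1.04, while Vegfd (-1.29) and the angiogenesis inhibitor gene Thbs2 (-1.42) fell. Vegfd and Thbs2 lost their calls without young library 1, 2 or 3 (adjusted p 0.0608 and 0.0558 at most), Jag2 without young library 1 or 3 (0.0642) and Heyl without adult library 1 or 2 or young library 1 or 2 (0.0749). Without adult library 2 or young library 1, 1 Wnt gene was called lower. Dkk3 was lost there (adjusted p 0.0559 at most) and Lgr4 without adult library 2 or young library 3 (0.0664 at most). Vegfa and Fzd2 held only without adult library 4 (0.0955 and 0.0936 at most), Lef1 only without adult library 2 (0.102) and Tcf7l1 only without adult library 4 or young library 2 (0.105). Vegfa was not called in the fit of all 20 libraries or with the replicate block.

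Part of the transcripts of the mitochondrial genome were higher in adult ovaries. Of 13 mitochondrially encoded subunits 6 rose (46.2%) and 1 fell (7.69%), with a median of 0.50. Over all genes the shares were 8.11% and 13.4%. mt-Nd6, on the light strand, had -0.26, -0.18, -0.10 and -0.27 in adult ovaries, against -1.12, -0.91, -1.03 and -0.83 in young ovaries (difference 0.77, SE 0.15, adjusted p = 0.0128). mt-Nd3 went the other way, with -0.76, -0.78, -0.97 and -0.60 in adult ovaries and 0.23, 0.52, 0.30 and 0.55 in young ovaries (difference -1.18, SE 0.16). Both were free of overlap. Without young library 1 or young library 3 only 1 encoded subunit was called higher, and none in the fit of all 20 libraries. Of 32 nuclear subunits 8 fell and 1, Uqcrfs1 (0.89), rose, with a median of 0.02, and those that fell included Ndufb3 (-1.42), Ndufa8 (-1.34), Cox4i1 (-1.28) and Cox5b (-1.02). In the absence of young library 3, 3 nuclear genes were called lower and Uqcrfs1 had an adjusted p of 0.0537, and no nuclear gene was called lower in the fit of all 20 libraries. Cox4i1 was lost without young library 1 or 3 (0.0572 at most) and Cox5b without any 1 library but adult 3 or 4 (0.0894 at most).

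Mitophagy and autophagy genes stayed near the share of all genes, with 2 of 25 higher (8.00%) and 1 lower. Sqstm1, the p62 adaptor, rose by 1.01 and Gabarapl2 by 0.78, and the nuclear receptor coactivator Calcoco1 fell by 1.13. Calcoco1 had an adjusted p of 0.0503 without young library 3, and Sqstm1 lost its call without any 1 library but adult 3 or 4 (0.0967 at most). Gabarapl2 was lost without any but adult 1 or 3 (0.0913 at most). Pink1, the kinase that marks damaged mitochondria, had 0.61, 0.86, -0.35 and 1.16 in adult ovaries and 0.80, -0.01, 0.26 and 0.36 in young ovaries (difference 0.21, 95% interval -0.56 to 0.99). Its groups overlapped.

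Lysosomal genes rose in 9 of 28 cases (32.1%) and fell in 2 (7.14%), against 8.11% and 13.4% of all genes. Ctsd, the main aspartic protease of lysosomes, had 1.0, 0.86, 0.04 and 0.92 in adult ovaries, against -1.22, -0.91, -0.74 and -1.01 in young ovaries (difference 1.67, SE 0.25, adjusted p = 0.00634). Lgmn (1.92), Ctss (1.63), Tpp1 (1.16) and the membrane protein gene Lamp1 (0.68) rose, and Ctsk and Ctsh (-1.23) fell. Tfeb, the regulator of lysosome genes, had -0.20, 0.43, -0.87 and -0.41 in adult ovaries and -1.04 to -0.79 in young ovaries (difference 0.61, adjusted p = 0.128). Adult library 3 was low for the list, with a mean of -0.22 against 0.31 to 0.35 in the other adult libraries and -0.37 to -0.12 in young libraries. Several of these genes are abundant in macrophages, whose list also was lowest in adult library 3 among adult libraries, and the part of macrophages was not tested. In the fit lacking young library 3, 4 were called higher, and Lamp1 lost its call there and without young library 1 (adjusted p 0.0608 at most), and Ctsh there and without adult library 2 (0.0587 at most).

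Antioxidant genes rose in 8 of 27 cases (29.6%) and fell in 3 (11.1%), against 8.11% and 13.4% of all genes. Gclm, the regulatory subunit of glutathione synthesis, had 1.2, 0.71, 1.09 and 0.60 in adult ovaries, against -0.82, -0.66, -1.01 and -0.31 in young ovaries (difference 1.60, SE 0.22, adjusted p = 0.0056). Hmox1, which degrades haem, had 0.53, 0.34, 0.73 and 1.25 in adult ovaries and -1.02, -0.20, -0.91 and -0.91 in young ovaries (difference 1.47, SE 0.27). In both, the groups lay apart. Srxn1 (1.62), Gpx3 (1.89), Prdx1 (1.04), Prdx6 (1.15) and Mgst1 (1.03) rose, and Prdx5 (-1.74), Gpx7 (-1.0) and Keap1 (-1.47), the inhibitor of the regulator Nfe2l2, fell. Nfe2l2 itself had 0.47 and did not pass. Sod2 (1.36) and Cat (1.28) did not pass. With young library 3 left out 5 were called higher. Mgst1 (0.0506) and Keap1 (0.0509) were among those lost. Gpx7 kept its call only without adult library 3 (adjusted p 0.0813 at most), and Srxn1 was lost without adult library 1 or 2 or young library 1, 3 or 4 (0.105 at most).

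The antioxidant response element is the site of Nfe2l2. Searched as TGACNNNGC on both strands, it stood in 4 of the 9 called antioxidant genes with a promoter window (44.4%), against 16.4% of tested genes. The 3 with the motif before the start are shown with it in capitals, here on the other strand, at chr3:122245403-122245451 (Gclm, plus), chr4:116685446-116685494 (Prdx1, plus) and chr6:138140451-138140499 (Mgst1, plus) of GRCm38.p6. None overlaps a match to another motif searched.
Gclm: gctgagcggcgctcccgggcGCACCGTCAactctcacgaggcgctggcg
Prdx1: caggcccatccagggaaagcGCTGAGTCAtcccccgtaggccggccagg
Mgst1: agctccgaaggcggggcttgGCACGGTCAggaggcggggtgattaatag

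Of 17 iron genes, Ftl1 (ferritin light chain, 2.02) and Hmox1 rose, and Hp (haptoglobin, -1.77) and Cd163, which takes up haptoglobin with haemoglobin, fell. Each pair made 11.8% of the list, against 8.11% higher and 13.4% lower of all genes. The call of Hp ended without any 1 library but adult 2 or young 4 (adjusted p 0.0929 at most). Ftl1 had 0.07, -0.04, 0.11 and 1.07 in adult ovaries and -2.02, -1.46, -1.81 and -1.58 in young ovaries (SE 0.28, adjusted p = 0.0056). Ftl1 has near-identical copies in the genome, so its reads may be split. Ribosomal protein genes fell in 7 of 32 cases (21.9%, against 13.4% of all genes) and rose in none, with a median of -0.62. Rpl37 had -0.85, -1.58, -0.63 and -0.14 in adult ovaries and 1.26, 0.55, 1.67 and 1.37 in young ovaries (difference -2.01, SE 0.35, adjusted p = 0.00998), and Rpl11 fell by 2.03 and Rpl18 by 1.94. Adult library 2 was low for the list, with a mean of -1.08, against -0.12 to 0.61 in the other adult libraries and 0.25 to 0.88 in young libraries. Without young library 1 or 3 the count was 2. Rpl11 was lost there and without adult library 1 (0.063 at most). These genes have many processed copies, and their reads may be split too.

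Protein folding genes of the endoplasmic reticulum fell in 3 of 18 cases (16.7%, against 13.4% of all genes), Creld2 (-1.68), Sdf2l1 (-1.46) and Pdia6 (-1.06), and none was called with the replicate block. Among 15 heat shock genes Hspa8 rose by 1.04, and Cryab (-1.58) and Hspe1 (-0.69) fell. That was 6.67% higher and 13.3% lower, near the 8.11% and 13.4% of all genes. Of 16 immediate early genes Junb (1.11), Jund (1.62) and Nr4a2 (0.82) rose, and of 15 clock genes Per1 (1.11) and Nr1d1 (1.45), whose transcripts follow the time of day. These rises made 18.8% and 13.3% of the lists, against 8.11% of all genes. Of 16 senescence and p53 genes Mdm2 (0.83) rose and the nuclear lamina gene Lmnb1 (-0.80) fell, while Cdkn1a (0.58) did not pass. Each call was 6.25% of the list, below the 8.11% higher and 13.4% lower of all genes. After leaving out 1 library, the adjusted p reached 0.0598 for Creld2, 0.0962 for Sdf2l1, 0.0758 for Hspa8, 0.0772 for Cryab and 0.0863 for Hspe1. It reached 0.111 for Junb, 0.0867 for Jund, 0.0696 for Nr4a2 and 0.085 for Lmnb1, each of these calls ending without 4 to 6 libraries in turn, and 0.0524 for Nr1d1, without adult library 2.

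Among single genes the largest differences were chosen from those with no overlap and no tied lowest score. Sgk1, a kinase induced by steroids, had 0.76, 1.18, 0.76 and 0.27 in adult ovaries, against -1.87, -0.49, -1.96 and -1.94 in young ovaries (difference 2.31, SE 0.37, adjusted p = 0.00793). Mbp, the myelin basic protein gene whose locus also yields transcripts outside myelin, had 0.32, 1.0, 0.28 and 0.95 in adult ovaries and -1.45, -1.27, -1.73 and -1.94 in young ovaries (difference 2.23, SE 0.25). The other largest rises were those of Vps37a (2.35), of a sorting complex of endosomes, the presynaptic gene Bsn (2.30), Slc35e2 (2.30), Tmem178 (2.24) and Tmem104 (2.18). The calls of Vps37a and Bsn ended without young library 1 or 3, and that of Vps37a also without adult library 2, with adjusted p of 0.0581 and 0.0616 at most.

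Clec3b, the plasminogen-binding protein tetranectin (chromosome 9, 123150946 to 123157432, plus strand), had -0.69, -0.81, -0.79 and -1.28 in adult ovaries and 1.60, 1.21, 1.63 and 1.49 in young ovaries (difference -2.38, SE 0.19, adjusted p = 0.00318). The groups lay far apart. Spon2 (-2.32), a matrix protein gene, Arsi (-2.40), a sulfatase gene, Klhl29 (-2.38), Clip4 (-2.33), the glycoprotein hormone gene Stc2 (-2.31) and the retinol carrier gene Rbp4 (-2.30) were also among the largest falls, with F13a1, Evc2, Fabp4 and Slc2a4 given above. Rbp4 had -0.75 to -0.45 in adult ovaries and 1.94, 1.06, 2.86 and 0.90 in young ovaries, the order of the fat cell list among young libraries.

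The adjusted p of 0.05 fell between similar genes. Just inside were Mfap1a (0.70), Litaf (1.05) and Apod (-1.89), and just outside Ccdc146 (-1.67), Gm15470 (0.67) and Gm14066 (-1.06), with unadjusted p of 0.0107 or 0.0108. The smallest difference called was 0.48 in size.

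Values in the remaining groups of the series place these genes side by side, without a test, as comparisons with them would share libraries. Msmo1 averaged 0.87 ± 0.57 in adult and -1.27 ± 0.38 in young ovaries (SD, n = 4 each), and 0.28 ± 0.42 in adult ovaries given HEP14, -0.65 ± 0.56 in aged and 0.77 ± 0.87 in aged ovaries given HEP14. Ptgfr averaged 0.83 ± 0.47 in adult, -1.57 ± 0.18 in young, 0.38 ± 0.68 in adult HEP14, -0.31 ± 0.50 in aged and 0.68 ± 0.49 in aged HEP14 ovaries. For both genes the young group was the lowest of the 5. Eln averaged -0.60 ± 0.41 in adult, 1.62 ± 0.30 in young, -0.84 ± 0.12 in adult HEP14, 0.50 ± 0.36 in aged and -0.68 ± 0.21 in aged HEP14 ovaries. Mcm2 averaged -0.05 ± 0.36 in adult, 1.32 ± 0.21 in young, 0.17 ± 0.42 in adult HEP14, -1.52 ± 0.31 in aged and 0.07 ± 0.65 in aged HEP14 ovaries. Both were highest in young ovaries, and aged ovaries were the next highest for Eln and the lowest for Mcm2. Gpnmb averaged 0.31 ± 0.74 in adult and -1.53 ± 0.15 in young ovaries, and 0.40 ± 0.38 in adult HEP14, 0.35 ± 0.92 in aged and 0.47 ± 0.91 in aged HEP14 ovaries, so that the young group alone stood apart.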

How the data were processed

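The authors deposited 1 table of scores for 17651 genes in 20 libraries of ovarian total RNA (TRIzol, Illumina NovaSeq, per the labels). In every gene the deposited scores have a mean of 0 and an SD of 1 over the 20 libraries, and how genes were selected is not stated. The tools named, per the submitters' processing notes, are DESeq2 1.20.0, the aligner HISAT2 2.0.5 and the counter featureCounts 1.5.0-p3. Which genome build and annotation they ran with is not given in the sources used here. The table holds no counts, so no depth, level or fold change could be computed.

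The 4 adult and 4 young libraries were fitted with limma 3.58.1 (R 4.3.3, moderated test without trend, Benjamini-Hochberg adjustment over all genes), tested on simulated data first. Gene IDs were matched to GENCODE M21 (GRCm38) in 17643 of 17651 cases, and positions given with a chromosome name are of that build. Promoters are from RefSeq (GRCm38.p6). The 60 gene lists, the comparison and the gene panel were chosen with earlier results of these data known, and some lists share genes. The text names the 12 largest non-overlapping called differences in each direction, without tied lowest scores, predicted genes, pseudogenes or small RNAs. It also names up to 2 called members of each list by smallest p and a panel of 32 genes, 29 of them in the table. Further list members are named as examples chosen after their values were seen. Fshr, Cyp17a1 and Igf2 were not analysed here, and some genes that the rule or the lists hold are not reported here. The alternatives were all 20 libraries in the fit, 1 variance per group, equal library medians, genes rescaled over the 8 libraries, robust moderation, genes with a tied lowest score left out, the replicate block and each library left out. A further pair was chosen after seeing the data: no moderation of the variances, and young libraries 1 and 3 left out.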

Additional observations from a re-analysis of the deposited data

Results flagged for a closer look

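In some groups 1 library stood far from the other 3, with a gap to the nearest of them above the 95% critical value of Dixon's test. This held for 24 of 414 groups of 4 values (5.8%), and chance gives about 1 in 20 (5%). Young library 2 was the distant one in 13 of them. It was above the other young libraries for Sfrp4 (-1.32, the others -1.87 to -1.83), Sgk1 (-0.49, the others -1.96 to -1.87), Acsl4 (-0.35), Runx2 (-0.35), Hmox1 (-0.20), Thbs2 (1.61) and the means of luteal markers (-0.37), collagen maturation (0.80) and stroma markers (0.81). It was below them for Evc2 (0.68, the others up to 1.92), Ifit2 (0.59), Rpl18 (1.18) and the mean of chemokines and cytokines (-0.27). Young library 1 was high for Clip4 (1.84), and young library 3 was low for Ctsk (0.94) and high for Igf1 (1.67).

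Adult library 3 was the low one for Ctsd (0.04, the others at least 0.86), Vwf (-0.54) and the means of lysosomal genes (-0.22) and ovarian surface epithelium markers (-0.52). Adult library 2 was high for Igha (0.89, the others -0.07 to 0.09) and Foxj1 (-0.38), adult library 4 for Ftl1 (1.07, the others -0.04 to 0.11) and adult library 1 for the mean of stroma markers (0.19).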

How the results depend on the processing

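With all 20 libraries in the fit, 1751 genes were called (486 higher, 1265 lower in adult ovaries), and without moderation of the variances 2143 (819 higher, 1324 lower). No gene was called (0 in either direction) with genes rescaled over the 8 libraries, where limma gave every gene the same variance, or without young libraries 1 and 3, although 8219 and 3924 genes had an unadjusted p under 0.05. With 1 library left out, 1589 to 3775 genes were called, 505 to 1619 higher and 1084 to 2213 lower. With 1 variance per group (3275), equal library medians (3904), robust moderation (3570) and tied genes left out (3199) the count stayed within 1.5 times that of all 8 libraries (3789). Equal library medians moved the median difference of all genes to 0.07. Of the 136 called genes among those named by the rule, 36 lost the call in the fit of all 20 libraries, 30 without moderation and 7 to 38 with 1 library left out. None changed sign under any alternative, which leaving libraries out could not bring about where the groups did not overlap.

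Whether same-numbered adult and young libraries share more than a number was not tested. Their deviations correlated at 0.0179 to 0.0585, and those of differently numbered libraries at -0.0893 to 0.0989. Adult library 1 correlated best with young library 2 and adult library 3 with young library 4, while adult libraries 2 and 4 correlated best with their own number. With the replicate block, 2587 genes were called, 896 of them higher and 1691 lower. Scores without counts limit the results: low and high transcripts weigh alike, and 4445 genes had a tied lowest score.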

Other observations

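Some gene families and classes counted apart from the lists had calls mainly in 1 direction, and they were picked after their values were seen. Over all genes 8.11% were called higher and 13.4% lower. Of 22 subunits and partners of the V-ATPase, the proton pump that acidifies lysosomes, 10 were called higher (45.5%) and 2 lower (9.09%). Their mean score was -0.08 to 0.46 in adult and -0.39 to 0.05 in young libraries, which overlapped. Atp6v1h had 0.25, 0.65, 0.64 and 0.67 in adult libraries 1 to 4, against -1.52, -0.78, -1.52 and -1.29 in young libraries 1 to 4 (difference 1.83). Atp6v0a4, a subunit of specialised epithelia, went the other way (-2.34). Of 14 peroxisome assembly genes (Pex) 4 were called higher (28.6%), with Pex2 at 2.05, and none lower. Nlrp genes, several of them oocyte genes, were called lower in 9 of 17 cases (52.9%) and Fbxw genes in 10 of 23 (43.5%). Oas and Oasl genes were called lower in 6 of 11 (54.5%), and none of these families had a gene called higher. Of 8 adenylyl cyclase genes (Adcy), 4 were called lower, Adcy1 by 1.76 in size. Of 42 immunoglobulin kappa variable segments 11 were called higher (26.2%) and none lower, against 1 of 22 heavy variable segments (4.55%), with median differences of 1.11 and 1.18, and reads of such segments can be split between near-identical copies.

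Classes of transcripts differed too, against 8.11% higher and 13.4% lower over all genes. Loci annotated as TEC, unconfirmed transcripts, were called higher in 68 and lower in 6 of 681 cases, and sense intronic RNAs in 13 and 0 of 87. Antisense RNAs were called higher in 71 and lower in 29 of 652, where reads of the 2 strands may be mixed. Processed pseudogenes were called higher in 63 and lower in 218 of 892 (24.4% lower), and those named for a ribosomal protein in 4 and 31 of 81 (38.3% lower). Of 16 mitochondrial transfer RNAs 7 were called higher and 1 lower.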
